A study of Mus musculus with 8 samples.

Results

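The Hox genes are described here as they were measured in the lungs of newborn mice. Members were the array features whose platform gene symbol is Hoxa, Hoxb, Hoxc or Hoxd followed by a number, without antisense genes. This gave 59 features for 38 genes, out of 31425 named features for 20842 genes. The samples are 8 lung RNAs of C57Bl/6J pups kept in a chamber with 20% oxygen from postnatal day 0 to day 3. There were 4 wild-type samples and 4 labelled Fgf10 +/-, that is heterozygous for fibroblast growth factor 10, a mesenchymal signal needed for lung formation. The series title calls this a knock-down. The tissue is labelled lung, with no cells sorted from it, and the construction of the allele is not described. RNA was hybridised to 1-colour (Cy3) arrays. The question is what the loss of 1 Fgf10 allele changes at a normal oxygen level. The submitters call the samples independent. The labels used here give no litter or sex.

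Hox genes encode homeodomain transcription factors that give cells their position along the body axis. In the mouse they lie in 4 clusters, HoxA to HoxD, on chromosomes 6, 11, 15 and 2. Genes with the same number in different clusters are paralogues, copies that go back to a common ancestral gene, and the numbers run from 1 to 13 along a cluster. Genes with low numbers are switched on early and near the head, and those with high numbers late and towards the tail, the limbs and the urogenital tract. In the lung, Hox genes of the middle numbers are known from the mesenchyme. Loss of Hoxa5 disturbs the growth of the trachea and lung, and Hoxb5 takes part in airway branching.

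Values are log2 signals after quantile normalization, with a median of 3.47 over all 62976 features. A member was called above background where its mean over all 8 arrays was over 5. The feature with the highest mean stood for its gene. A probe's brightness also depends on its sequence, so the level of a gene was not ranked against that of another gene. The arrays showed the markers of lung. Above background were 13 of 13 epithelial, 12 of 12 mesenchymal and 8 of 8 endothelial markers, against 55.5% of all genes. Of the thymocyte markers 2 of 8 were, of skeletal muscle 4 of 12, of cartilage 4 of 12 and of fat 2 of 10. The signal of Fgf10 itself was 7.46 ± 0.40 (SD, n = 4) in the wild type and 7.95 ± 0.32 (SD, n = 4), thus no lower, in the libraries labelled Fgf10+/-, with a two-sided exact permutation p of 0.0857. No source used here places the Fgf10 feature inside or outside what the allele removes, so it does not check the labels, and directions rest on them. Wild-type replicate 4 stood apart through genes of other tissues: its mean log2 deviation from the 8-array mean was 3.11 for 12 skeletal muscle genes, 3.57 for 12 cartilage genes and 1.43 for 10 fat genes, and no other library was above -0.01 for any of these lists.

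Paralogue group 4 has a member in each cluster and was split by the threshold, so the stretches before its starts are printed where RefSeq's table held them, with that of Hoxa5, a member with a known lung role. The signal of Hoxb4 was above background and those of Hoxc4 and Hoxd4 were not. The 250 bases before each start are from RefSeq (GRCm38.p6), in lower case, 5′ to 3′ on the gene's strand. Capitals mark matches, on either strand, to 5 motifs. These are the TATA box, spelled TATAAA, the box with the letters CCAAT, the E-box, searched as CACGTG, a site of PBX and HOX proteins together, searched as TGATTNAT, and the nuclear receptor site AGGTCA. No printed match overlaps another. The stretches lie at chr6:52204588-52204837 (minus strand) for Hoxa5, chr11:96318017-96318266 (plus) for Hoxb4, chr15:103034145-103034394 (plus) for Hoxc4 and chr2:74721728-74721977 (plus) for Hoxd4.
Hoxa5: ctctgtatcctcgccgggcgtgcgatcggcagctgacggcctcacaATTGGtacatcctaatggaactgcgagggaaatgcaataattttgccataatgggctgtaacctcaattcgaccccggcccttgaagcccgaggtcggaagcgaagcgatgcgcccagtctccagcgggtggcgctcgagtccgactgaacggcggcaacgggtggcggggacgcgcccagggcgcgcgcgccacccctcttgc
Hoxb4: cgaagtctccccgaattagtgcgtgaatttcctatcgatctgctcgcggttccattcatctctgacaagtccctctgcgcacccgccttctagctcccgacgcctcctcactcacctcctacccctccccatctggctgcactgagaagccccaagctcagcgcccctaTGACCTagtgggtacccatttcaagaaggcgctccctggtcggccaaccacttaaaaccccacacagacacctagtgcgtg
Hoxc4: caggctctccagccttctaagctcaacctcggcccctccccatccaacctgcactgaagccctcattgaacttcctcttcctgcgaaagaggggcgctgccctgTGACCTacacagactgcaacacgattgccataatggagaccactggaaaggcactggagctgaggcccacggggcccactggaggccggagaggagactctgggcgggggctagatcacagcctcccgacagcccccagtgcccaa
Hoxd4: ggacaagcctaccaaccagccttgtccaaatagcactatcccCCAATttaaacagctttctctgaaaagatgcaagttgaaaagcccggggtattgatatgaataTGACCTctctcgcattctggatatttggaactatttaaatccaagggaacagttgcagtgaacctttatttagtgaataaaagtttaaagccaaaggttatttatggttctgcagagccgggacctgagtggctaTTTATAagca

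The Hoxb4 and Hoxc4 stretches each hold 1 match, AGGTCA read on the other strand. The Hoxd4 stretch holds 3: a CCAAT box on the gene's strand, and an AGGTCA site and a TATAAA box on the other. That of Hoxa5 holds 1 CCAAT box on the other strand. AGGTCA was found in 14% of all 32851 promoter windows of this length, CCAAT in 33.8%, TATAAA in 12.4%, CACGTG in 6.02% and TGATTNAT in 2.82%. The number of CG dinucleotides, where DNA can be methylated, was 28 for Hoxa5, 14 for Hoxb4, 8 for Hoxc4 and 3 for Hoxd4. The promoter table held 22 of the 38 members. The median count was 14 over 5 windows of members above background, with a range from 6 to 28, and 12 over 19 windows of the others, with a range from 2 to 35. The ranges overlapped almost fully. The median over all windows was 6. CCAAT occurred in 2 of the 5 and 12 of the 19 windows.

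**Figure D1:**
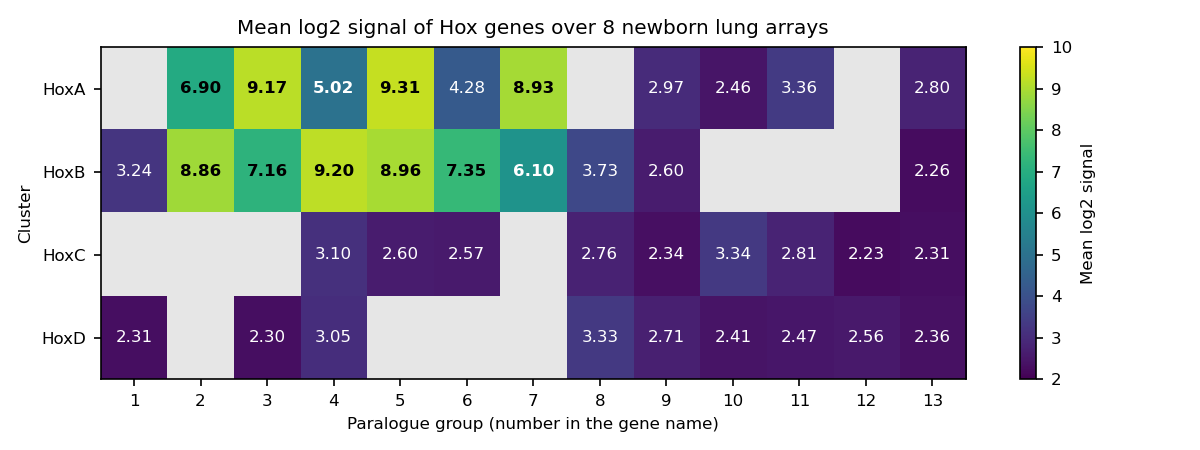
Mean log2 signal over 8 arrays for each Hox gene, with clusters as rows and paralogue groups as columns; grey cells hold no measured gene and values over 5 are bold. The 11 genes above background all lie in HoxA and HoxB, in groups 2 to 7; colours separate signal from background and do not rank genes, since probes differ.

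By their means over 8 arrays, Hox genes above background in the newborn lung all lay in the HoxA and HoxB clusters, in groups 2 to 7. Of the 38 genes 11 were above background, 28.9% against 55.5% of all 20842 genes. In HoxA these were 5 of 10 measured members, Hoxa2, Hoxa3, Hoxa4, Hoxa5 and Hoxa7. In HoxB they were 6 of 10, Hoxb2 to Hoxb7, which are 6 neighbours in a row. HoxC had 0 of 9 above background, with means from 2.23 to 3.34, and HoxD 0 of 9, with means from 2.30 to 3.33.

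Within groups 2 to 7, 11 of the 12 HoxA and HoxB genes were above background and 0 of the 5 HoxC and HoxD genes. Groups 2 and 7 had 2 of 2 measured members above background, groups 3 and 5 had 2 of 3, group 4 had 2 of 4 and group 6 had 1 of 3. In groups 8 to 13, 0 of 19 members were above background, and in group 1, 0 of 2. The Hox genes of the posterior body thus gave no signal over the threshold: the mean was 3.36 for Hoxa11, which patterns the forearm and uterus, 2.80 for Hoxa13 and 2.36 for Hoxd13, which pattern digits, and 2.26 for Hoxb13, a gene of the prostate and tail. A signal under the threshold does not show that a gene is silent in every lung cell, since a few cells can be lost in whole-lung RNA.

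The threshold of 5 parted the members clearly except in HoxA. Just inside was Hoxa4 with a mean of 5.02, which was over 5 on 4 of 8 arrays. Just outside was Hoxa6 with a mean of 4.28, which was over 5 on 1. The highest mean among the other 26 members was 3.73, for Hoxb8. The lowest among the other 10 above background was 6.10, for Hoxb7. Over 4 there were 12 members, Hoxa6 being added, and over 6 there were 10, Hoxa4 being lost. The same 10 were over 5 on every array. With each library left out in turn there were 10 or 11.

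There were 5 members with more than 1 feature, and their features gave the same call except for Hoxb3. All 10 Hoxa11 features had means between 2.17 and 3.36, all 10 Hoxb1 features between 2.26 and 3.24, both Hoxa9 features 2.39 and 2.97, and both Hoxa13 features 2.10 and 2.80. The Hoxb3 features had means of 7.16 and 4.43, so the gene was above background on 1 of its 2 features. In wild-type replicates 1 to 4 the dimmer feature read 4.21, 4.54, 4.31 and 3.93. In the libraries labelled Fgf10+/- it read 4.01, 4.11, 4.66 and 5.67.

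No Hox gene differed between the genotypes at the threshold of the test. With limma and Benjamini-Hochberg adjustment over all 20842 genes, 0 of 38 members passed an adjusted p of 0.05, and neither did any other gene (0.00%). At an unadjusted p under 0.05 there were 2 of 38 members, Hoxb7 and Hoxb9, both higher in the libraries labelled Fgf10+/-, where 11.0% of all genes lay under it, 4.74% higher and 6.29% lower. The members' share of 5.26% was thus no larger than that of all genes. Hoxb7 was the 1 of the 11 members above background, where 13.2% of all genes above background lay under 0.05, 5.35% higher and 7.89% lower. Hoxb9 was the 1 of the other 27, where 8.27% of genes at 5 or less did, 3.99% higher and 4.29% lower. The groups did not overlap for 1 of 38 members, Hoxb9, against 7.39% of all genes, 2.99% with the libraries labelled Fgf10+/- higher. This was 0 of the 11 members above background, against 10.8% of such genes (4.20% higher), and 1 of the 27 others, against 3.09% of genes at 5 or less.

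The median log2 difference, libraries labelled Fgf10+/- minus wild type, was 0.10 over the 38 members and 0.11 over the 11 above background, against -0.0012 over all genes and -0.0022 over the 11558 genes above background. Of the 11, 9 means were higher and 2 lower in the Fgf10+/- group, where 49.5% of all genes above background had a higher mean. These counts describe 8 shared RNAs and were not tested. Replicates of the 11 were close together, with a median residual SD of 0.19, as over all genes above background (0.19). The SD was 0.54 over the 27 others, against 0.50 over all genes at 5 or less.

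**Figure D2:**
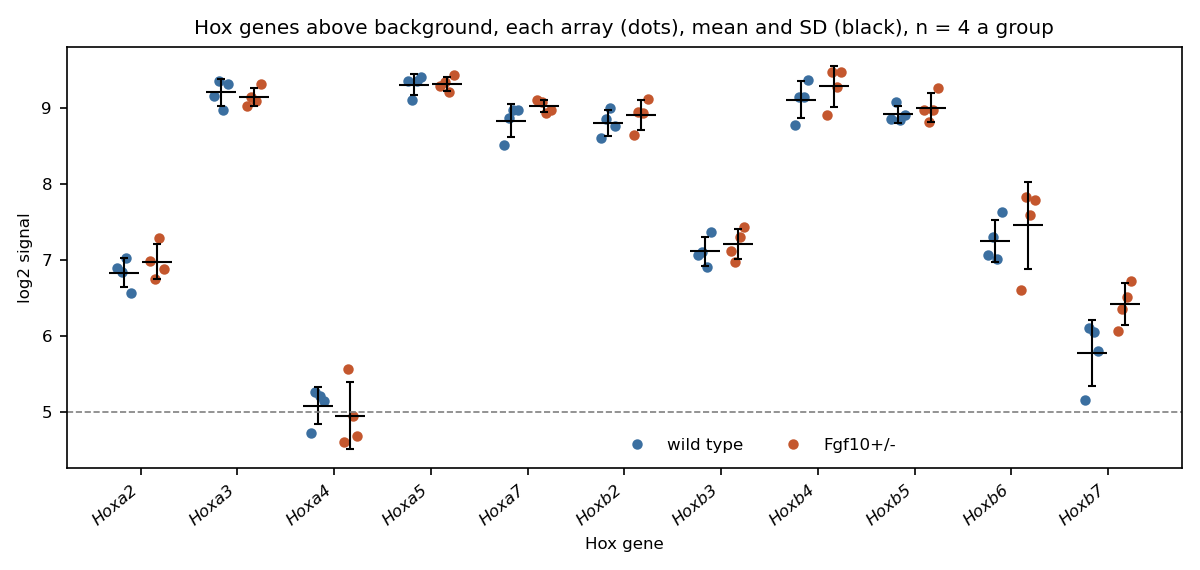
The log2 signal of the 11 Hox genes above background on each array (dots), with the mean and SD of 4 arrays per group (black) and the threshold of 5 (dashed). The groups overlap for all 11 genes, and Hoxb7 has the widest gap between means, 5.78 against 6.42.

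The genes of group 5 carry the best known lung roles in the family, and both HoxA and HoxB members had nearly equal signals in the 2 genotypes. Hoxa5 read 9.36, 9.11, 9.35 and 9.41 in wild-type replicates 1 to 4 and 9.29, 9.34, 9.21 and 9.43 in replicates 1 to 4 of the libraries labelled Fgf10+/-. The 8 values spanned 0.33 and the groups overlapped. The difference was 0.01, with a 95% interval from -0.25 to 0.26 (SE 0.11; limma adjusted p = 0.986; two-sided exact permutation p = 0.886). In fold terms this interval runs from 0.84 to 1.20, so a larger change of this signal lies outside it. Hoxb5 read 8.85, 9.08, 8.84 and 8.91 in the wild type and 8.97, 8.81, 8.97 and 9.27 in the other group. The highest and the lowest value both belonged to libraries labelled Fgf10+/-. The difference was 0.09, with an interval from -0.21 to 0.38 (SE 0.13; limma adjusted p = 0.857; exact permutation p = 0.486). Their paralogue Hoxc5 was at background, with a mean of 2.60.

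Of group 4, Hoxb4, which is also known for the self-renewal of blood stem cells, read 8.78, 9.15, 9.14 and 9.37 in the wild type. In the libraries labelled Fgf10+/- it read 8.91, 9.48, 9.28 and 9.47. The lowest library of each group was replicate 1, and the groups overlapped. The difference was 0.18, with an interval from -0.24 to 0.59 (SE 0.18; limma adjusted p = 0.778; exact permutation p = 0.371). It was 0.06 without wild-type replicate 1 and 0.30 without replicate 1 of the other group. Hoxa4, close to the threshold, read 4.73, 5.26, 5.21 and 5.14 against 4.61, 5.57, 4.95 and 4.68. The highest and the lowest value were again both in libraries labelled Fgf10+/-. The difference was -0.13, with an interval from -0.66 to 0.40 (SE 0.23; limma adjusted p = 0.881; exact permutation p = 0.6). With each library left out in turn it ran from -0.34, without replicate 2 of that group, to -0.02, without its replicate 1. Hoxc4 and Hoxd4 had means of 3.10 and 3.05. The single high value of Hoxc4, 4.93, came from Fgf10+/- replicate 1, where the other 7 lay between 2.14 and 3.48.

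Group 7, the last group above background, held the member with the smallest p of the 11. Hoxb7, a gene of trunk patterning, read 5.16, 6.10, 6.05 and 5.80 in the wild type and 6.07, 6.36, 6.51 and 6.73 in the libraries labelled Fgf10+/-. In that group 3 of 4 values were above the highest wild-type value, and replicate 1 fell between wild-type replicates 3 and 2. The difference was 0.64, with an interval from 0.10 to 1.18 (SE 0.24; unadjusted limma p = 0.0263; limma adjusted p = 0.367; two-sided exact permutation p = 0.0571), which does not pass. With each library left out in turn it ran from 0.44, without wild-type replicate 1, to 0.76, without replicate 1 of the libraries labelled Fgf10+/-. The unadjusted limma p of Hoxb7 was not under 0.05 without replicate 3 or without replicate 4 of that group. Hoxa7 read 8.52, 8.87, 8.97 and 8.98 against 9.11, 9.08, 8.94 and 8.98. Its lowest library was wild-type replicate 1, as for Hoxb7. The difference was 0.19, with an interval from -0.11 to 0.49 (SE 0.13; limma adjusted p = 0.65; exact permutation p = 0.114). It was 0.09 without that library and at most 0.24 with any other library left out.

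Groups 2 and 3 pattern the hindbrain and the tissues of the pharynx in the embryo, and their HoxA and HoxB members were above background here. Hoxa2 read 6.89, 6.84, 7.03 and 6.57 in the wild type and 6.99, 6.75, 7.29 and 6.88 in the libraries labelled Fgf10+/-, a difference of 0.15 (interval -0.21 to 0.50; limma adjusted p = 0.789). With each library left out in turn it ran from 0.04 to 0.22. Hoxb2 read 8.60, 8.85, 9.00 and 8.76 against 8.64, 8.95, 8.94 and 9.12, a difference of 0.11 (interval -0.21 to 0.44; limma adjusted p = 0.824). Both genes thus overlapped between the groups.

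Hoxa3, needed for the thymus and parathyroid, read 9.16, 9.36, 8.98 and 9.32 against 9.03, 9.14, 9.09 and 9.31, a difference of -0.07 (interval -0.35 to 0.22; limma adjusted p = 0.892). With Hoxa4 it was the other member of the 11 with a lower mean in the libraries labelled Fgf10+/-. The brighter Hoxb3 feature read 7.07, 7.10, 6.91 and 7.37 against 7.12, 6.98, 7.30 and 7.43, a difference of 0.10 (interval -0.24 to 0.43; limma adjusted p = 0.864), or 0.23 when both features were averaged. Hoxb6, of group 6, read 7.07, 7.30, 7.02 and 7.63 against 6.61, 7.83, 7.59 and 7.79, a difference of 0.20 (interval -0.46 to 0.86; limma adjusted p = 0.85). It had the widest interval of the 11, and replicate 1 of the libraries labelled Fgf10+/- lay below all others. Without that library the difference was 0.48 (unadjusted p = 0.028; limma adjusted p = 0.353). It was 0.08 when Fgf10+/- replicate 2 was left out instead. Leaving Hoxb7 aside, the intervals of the other 10 members reach a change of 1.82-fold at most.

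**Figure D3:**
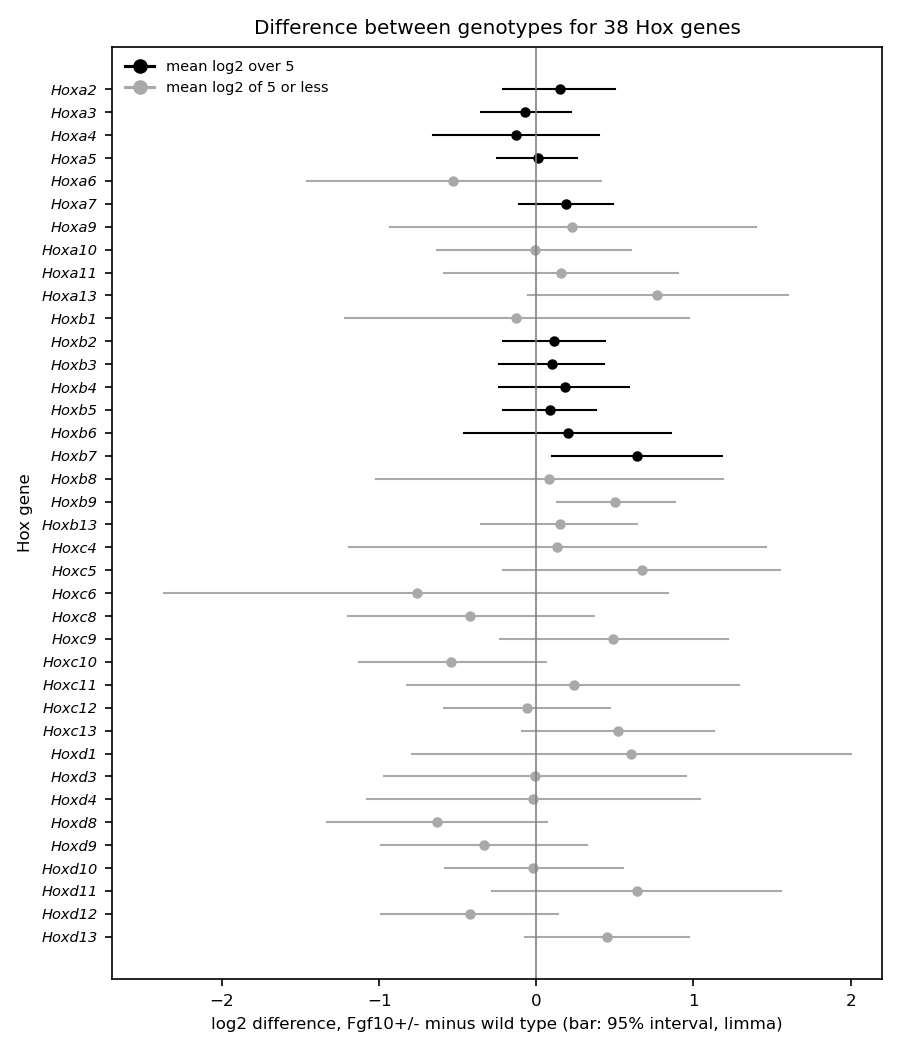
Log2 difference between libraries labelled Fgf10+/- and wild type for 38 Hox genes (dots) with 95% intervals from limma (bars), in black for genes with a mean log2 over 5. The interval leaves out 0 for Hoxb7 and Hoxb9, and bars of dim genes are wider, up to 1.60 either side for Hoxc6 against at most 0.66 for the 11 bright genes.

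Averaged over genes, the 6 HoxB genes above background varied over a wider range between libraries than the 5 HoxA genes. The mean log2 deviation of the HoxB genes from their 8-array means was -0.35, -0.01, -0.11 and 0.04 in wild-type replicates 1 to 4 and -0.22, 0.13, 0.16 and 0.36 in the libraries labelled Fgf10+/-. Both replicates numbered 1 were thus lowest and the groups overlapped. Wild-type replicate 1 had the lowest of the 8 values for 3 of the 6 HoxB genes, and replicate 4 of the libraries labelled Fgf10+/- the highest for 4 of them. The HoxA deviations stayed between -0.14, in wild-type replicate 1, and 0.11, in replicate 2 of the other group. The difference in spread between the clusters was not tested.

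Compartment markers also varied between libraries. The mean deviation of 12 mesenchymal markers was -0.10, 0.09, -0.14 and -0.11 in wild-type replicates 1 to 4. In replicates 1 to 4 of the libraries labelled Fgf10+/- it was 0.06, 0.10, -0.05 and 0.16. Replicate 4 of that group was highest for these markers and for the HoxB genes. The lowest library differed, being wild-type replicate 3 for these markers and wild-type replicate 1 for HoxB. Fgf10+/- replicate 1 was at 0.06 for the markers and -0.22 for HoxB. The mean deviation of 13 epithelial markers ran from 0.08 to 0.28 in the wild type and from -0.24 to -0.17 in the libraries labelled Fgf10+/-, without overlap. At an unadjusted p under 0.05 in limma, 4 of 12 mesenchymal markers were higher and 0 lower, and 0 of 13 epithelial markers were higher and 10 lower, where 5.35% of all genes above background were higher and 7.89% lower. The 4 higher mesenchymal markers were Wnt5a and the collagen genes Col1a1, Col1a2 and Col3a1. Over all 12 the differences ran from -0.19 to 0.60 with a median of 0.13, and Tbx4 differed by 0.06 and Pdgfra by -0.08. With adjustment over all genes, 0 markers of either list passed. In whole lung, fewer cells of a type and less RNA per cell cannot be told apart, and the part of the tissue's makeup in the HoxB values was not tested.

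**Figure D4:**
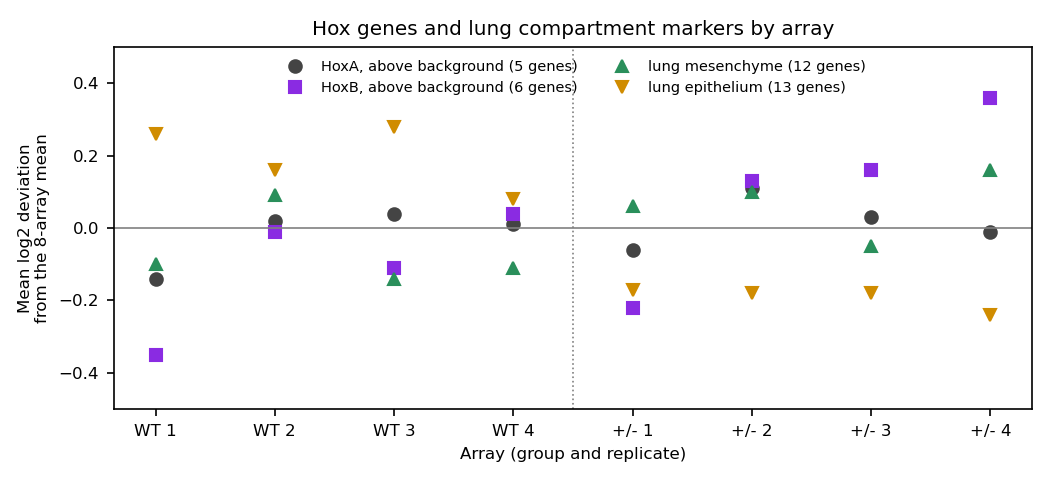
Mean log2 deviation from the 8-array mean on each array for the Hox genes above background in HoxA and HoxB and for mesenchymal and epithelial lung markers. HoxB genes run from -0.35 in wild-type replicate 1 to 0.36 in replicate 4 of the libraries labelled Fgf10+/- (marked +/-), and epithelial markers are above 0 in all wild-type libraries and below 0 in all others.

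Among the 27 members at background, values scattered near the floor of the array. Of their 216 values 20 were over 4 and 2 over 5, and the median was 2.62. The 2 over 5, Hoxa6 at 5.17 and Hoxc6 at 5.28, both came from wild-type replicate 4. The mean of 25 of the 27 was under the array median of 3.47, Hoxa6 and Hoxb8 being the exceptions. Hoxa6 read 4.91, 4.26, 3.83 and 5.17 in the wild type and 3.67, 4.67, 3.22 and 4.51 in the libraries labelled Fgf10+/-, and Hoxb8 reached 4.41. These are the members next to Hoxa5 and Hoxa7 in HoxA and next to Hoxb7 in HoxB. Hoxb9, a gene of rib patterning, read 2.32, 2.42, 2.26 and 2.39 against 3.15, 3.07, 2.69 and 2.49. All 4 values of the libraries labelled Fgf10+/- were higher, but all 8 were under the array median. The difference was 0.50 (SE 0.16; limma adjusted p = 0.305; two-sided exact permutation p = 0.0286, which is the lower limit for 70 assignments). Of genes with a mean of 5 or less, 1.48% had groups that did not overlap with the libraries labelled Fgf10+/- higher, and 1 of the 27 members did.

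Hoxc6, singled out after its values were seen, had a signal in 1 library. It read 5.28 in wild-type replicate 4 and 2.11, 2.25 and 2.18 in the other wild-type libraries, and between 1.84 and 2.71 in those labelled Fgf10+/-. The remaining 7 libraries were at background. Hoxc6 patterns the thoracic part of the trunk. The library is the one that stood apart in skeletal muscle, cartilage and fat genes. There, Col2a1, the main collagen of cartilage, read 13.97, against 2.18 to 5.56 in the other 7 libraries. Acta1, the skeletal muscle actin, read 10.96, against 5.14 to 5.63. Hoxc5 read 3.21 there, its highest wild-type value, and Hoxc8 read 2.45. The group difference of Hoxc6 was -0.76 with all libraries and 0.01 without that library. Hoxa6, at 5.17 in wild-type replicate 4 and 4.91 in wild-type replicate 1, differed by -0.53 with all libraries and by -0.32 without replicate 4. The part of muscle, cartilage and fat in the Hoxc6 and Hoxa6 signals was not tested.

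**Figure D5:**
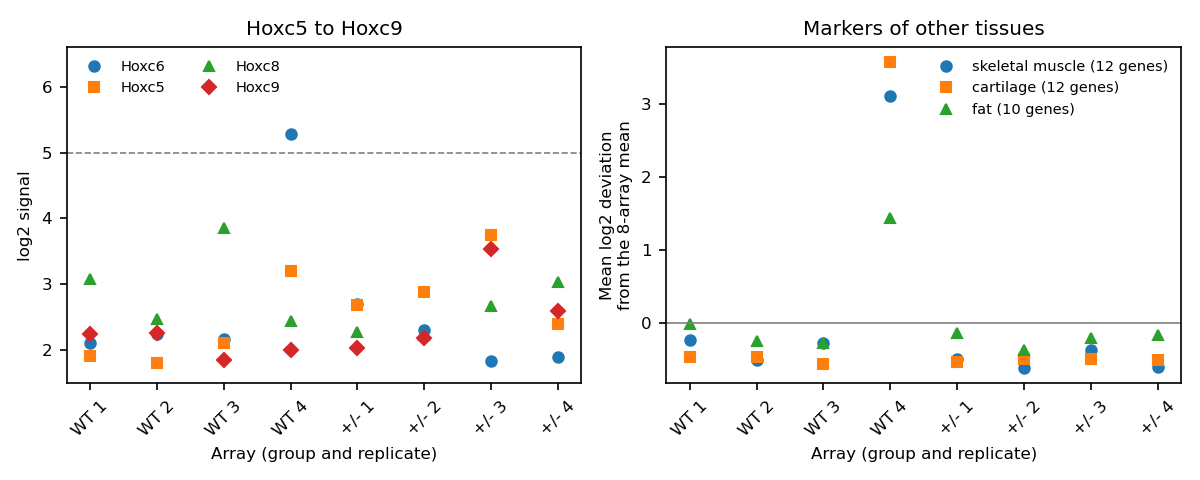
Left, log2 signal of Hoxc5, Hoxc6, Hoxc8 and Hoxc9 on each array with the threshold of 5 (dashed); right, mean log2 deviation of skeletal muscle, cartilage and fat markers on the same arrays. Hoxc6 at 5.28 and all 3 marker lists (3.11, 3.57 and 1.43) are highest in wild-type replicate 4.

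Hox proteins bind DNA with TALE homeodomain partners, and these were widely present. Of 9 TALE genes 8 were measured and 7 were above background, Pbx4 being the exception. With 0 passing in either direction, also at an unadjusted p under 0.05 in limma, their median difference was 0.17. Meis2 had the smallest p, at 7.67 ± 0.05 (SD, n = 4) in the wild type against 8.01 ± 0.30 (SD, n = 4), a difference of 0.34 (interval -0.02 to 0.70; limma adjusted p = 0.484). Meis1, a partner of many Hox proteins, differed by 0.16 and Pbx3 by 0.18.

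Polycomb proteins keep Hox genes silent outside their domain, and trithorax proteins keep them active inside it. Of 23 measured Polycomb genes 21 were above background, and 0 passed the adjusted threshold (median -0.06). At an unadjusted p under 0.05, 1 was higher and 1 lower, where 4.74% of all genes were higher and 6.29% lower, so these 2 of 23 are no larger a share than among all genes. Ezh2, the methyltransferase of the complex, which dividing cells express more, was at 8.70 ± 0.08 in the libraries labelled Fgf10+/- against 8.18 ± 0.17 (SD, n = 4 each), a difference of 0.52 (limma adjusted p = 0.185). Ring1, a ubiquitin ligase, was at 5.38 ± 0.22 against 5.89 ± 0.13, a difference of -0.51 (limma adjusted p = 0.246). The groups did not overlap for either gene, as for 7.39% of all genes. All 9 measured trithorax genes and histone demethylases were above background, with 0 passing and a median of 0.03. The 1 of 9 under an unadjusted 0.05, where 11.0% of all genes lay, was Psip1, which tethers MLL to chromatin, with a difference of 0.39 (limma adjusted p = 0.282).

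Retinoic acid and the Cdx factors switch Hox genes on in the embryo. Cdx1, Cdx2 and Cdx4, which are gut and tail genes, were at background, and 5 of the 10 genes of this list were above it. With 0 passing, 2 of 10 were lower at an unadjusted p under 0.05 in limma and 0 higher, against 6.29% and 4.74% of all genes, and the median was -0.24. Cyp26b1, which breaks down retinoic acid, was at 8.46 ± 0.11 in the libraries labelled Fgf10+/- against 9.08 ± 0.08 (SD, n = 4 each), without overlap, a difference of -0.62 (SE 0.10; limma adjusted p = 0.124). The receptor gene Rara differed by -0.34 (limma adjusted p = 0.418).

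The genes that flank the clusters followed no common direction. Of 12 measured neighbours 8 were above background and 0 passed, with a median of -0.08. At an unadjusted p under 0.05 in limma 1 was higher and 1 lower, against 4.74% and 6.29% of all genes. Skap2, beside HoxA, was higher in all 4 libraries labelled Fgf10+/- by 0.29 (limma adjusted p = 0.391), and Ttll6, a tubulin-modifying enzyme gene beside HoxB, was lower by 0.80 on average, with overlapping groups (limma adjusted p = 0.371). Evx1 and Evx2, homeobox genes at the posterior ends of HoxA and HoxD, were at background like the posterior Hox genes beside them, with means of 2.56 and 2.58. Of 10 noncoding genes of the clusters 2 were measured, Hoxa11os and Hoxd3os1, both at background. Hoxd3os1 had the smaller p, with a difference of 0.30 (limma adjusted p = 0.672).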

How the data were processed

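Per the labels' protocols, miRNeasy-isolated RNA was labelled with Cy3 by linear amplification (Low-Input QuickAmp, Agilent). The deposited table holds log2 signals of 62976 features on 8 arrays. The authors had quantile normalized them, as the values show: sorted arrays differed by at most 0.00418. limma is named in the submitters' processing notes, with no version. No source used here gives the background correction or flags, so differences near the floor may be compressed. Symbols came from the platform table and were updated by transcript accession through RefSeq (GRCm38.p6), which held 29036 of 31465 named features. Of the named features 40 had an empty value and were dropped, none a member's. No coordinates of array features are given, since their build is not named.

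Members, lists and tests were chosen with earlier results of these data known. The main test was limma 3.58.1 in R 4.3.3 with group only, two-sided, adjusted over 20842 genes. Intervals are limma's, at 95%. Exact permutation tests used all 70 assignments. Nothing says whether arrays share a litter, so p-values measure the spread between these samples, and 4 arrays per group limit the precision. Named by rule were Hoxa4, Hoxa5, Hoxb4, Hoxb5, the 4 members above background with the smallest p (Hoxb7, Hoxa7, Hoxb4 and Hoxa2), and from each regulator list up to 3 genes under an unadjusted 0.05 or otherwise the 1 with the smallest p. Other members are given by range or were named after their values were seen. The fit was tested on 5 simulated data sets with each gene's residual SD, holding 100 changes of 1 log2 unit and 100 of 2. At the adjusted threshold it found 38 to 48 of the smaller changes and 76 to 80 of the larger. Among all genes, a gene that does not pass can thus still have a change of either size. The changed genes were drawn from all 20842, dim ones included, with a median residual SD of 0.31. For the 11 members above background it was 0.19, so these shares do not describe them and their intervals bound the change instead. Those intervals reach 1.82-fold at most without Hoxb7. Alternatives were the mean of all features, every feature, further scaling, filters on dim genes, variance trend, array weights, a replicate block, left-out libraries and other thresholds for background. Same-numbered libraries deviated together at correlations from 0.0178 to 0.113. Wild-type replicates 1 and 4 correlated best with the library of their own number, and replicates 2 and 3 with another. The main fit did not take the numbers as pairs, and these values do not exclude pairing. Promoter motifs were searched on both strands. Figures were drawn with matplotlib 3.10.9.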

Additional observations from a re-analysis of the deposited data

Results flagged for a closer look

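In wild-type libraries the Hoxc6 signal of replicate 4, 5.28, lay far from the next value, 2.25. The gap was 0.96 of the whole range of the 4 values, above Dixon's 95% critical value for 4 values. This was the 1 such gap in 76 groups of 4 values, from 38 Hox genes in 2 genotypes, where chance flags about 1 in 20. The same library had the highest skeletal muscle, cartilage and fat marker levels, and their part in the value was not tested.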

How the results depend on the processing

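The number of Hox genes passing stayed at 0 in all 19 alternatives, and the number above background was 10 to 12 under 6 other thresholds and 9 settings with libraries left out. The count of all genes passing was 38 or 288 without genes below the 25th or 50th percentile, 414 with limma's trend and robust options, 3 with array weights, and from 0 to 1 with each library left out. The count of Hox genes under an unadjusted p of 0.05 was 1 without genes below either percentile or with those options, 5 with array weights and 4 with the replicate block. It ran from 1 (without replicate 3 of the libraries labelled Fgf10+/-) to 6 (without wild-type replicate 4) with each library left out. Those 6 included Hoxd8 at -0.93 (limma adjusted p = 0.144). The median difference over the 11 genes above background ran from 0.04 to 0.15 with each library left out, and over all 38 from 0.06 to 0.13. The Hoxa5 difference ran from -0.06 to 0.05 and that of Hoxb5 from -0.002 to 0.15 in the same way, so neither has a direction. That of Hoxa2 stayed between 0.04 and 0.22. It was -0.05 with wild-type replicate 4 and Fgf10+/- replicate 3 left out together, which hold its lowest wild-type and its highest Fgf10+/- value, so that this setting lowers the difference by construction. With the replicate number as a block the Hoxb7 difference was 0.64 with a limma adjusted p of 0.32, and 0 Hox genes passed the adjusted threshold. At the floor, the 27 dim members have 95% intervals that reach a median of 0.78 to either side, against 0.34 for the 11 above background.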

Other observations

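The feature taken for Hoxa11 and that taken for Hoxb1, each the brightest of 10, had their 2 highest values in the same libraries, although both genes were at background. Hoxa11 read 4.03 in wild-type replicate 3 and 4.09 in replicate 2 of the libraries labelled Fgf10+/-, and Hoxb1 read 3.99 and 4.44 there. In the other 6 libraries these features lay between 2.24 and 3.43.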
